A study of Mus musculus with 32 samples.

Results

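The Kruppel-like factors described here are 7 transcription factor genes, Klf2, Klf3, Klf6, Klf7, Klf9, Klf10 and Klf13, among 19938 genes read by Affymetrix Mouse Gene 1.0 ST arrays. They are a part of the family, listed with earlier results of these data known, and other KLF genes were also measured. The probe sets used are those that the array annotation assigns to a member alone. All 7 members had exactly 1 such probe set, so no choice between probe sets was needed. RNA came from 4 mouse macrophage lines on an M-/- background, each carrying its own form of the CSF-1 receptor, the tyrosine kinase through which these cells sense the growth factor CSF-1. The lines are called by their receptor form: WT and 3ABY721 carry Tyr-721, and Y721F and 3AB lack it. For the time course, cells of the WT and Y721F lines were deprived of CSF-1 overnight and given it back for 0, 20, 60 or 180 min. In the steady-state experiment all 4 lines were either deprived of CSF-1 or kept in it at 120 ng/mL. Each of the 16 groups has 2 arrays, numbered I and II. There is 1 line per receptor form, so receptor and line cannot be told apart, and bulk RNA does not tell fewer expressing cells from less RNA per cell.

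Kruppel-like factors share a run of zinc fingers at the C terminus that binds GC-rich and CACCC-type DNA, and they differ in the N-terminal part that recruits activators or repressors. Some, such as Klf2, Klf6 and Klf10, are known as early response genes, and others follow hormones or differentiation. In macrophages Klf2 is known to restrain inflammatory activation and Klf6 to favour it. Klf3 is a repressor that works through CtBP proteins. Klf9 is induced by glucocorticoid and thyroid hormone, Klf10 is the TGF-beta-inducible early gene, and Klf13 is known for driving Ccl5 in T cells. Klf7 is best known from neurons.

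Promoter sequence is shown for Klf2 and Klf6, whose signals were highest at 20 min of CSF-1, and for Klf9, whose time course signal was lowest at 180 min. Klf2, Klf3 and Klf13 were also lowest at 180 min, so this does not set Klf9 apart. The windows are the 250 bases before the start given by RefSeq in build GRCm38.p6, all on the plus strand: chr8:72318812-72319061 for Klf2, chr13:5861239-5861488 for Klf6 and chr19:23140976-23141225 for Klf9. Capitals mark matches, on either strand, to the motifs searched.
Klf2: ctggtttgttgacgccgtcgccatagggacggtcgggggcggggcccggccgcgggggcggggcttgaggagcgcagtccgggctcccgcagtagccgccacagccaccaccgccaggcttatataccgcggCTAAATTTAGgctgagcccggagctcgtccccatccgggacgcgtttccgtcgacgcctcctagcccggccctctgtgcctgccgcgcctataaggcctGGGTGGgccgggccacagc
Klf6: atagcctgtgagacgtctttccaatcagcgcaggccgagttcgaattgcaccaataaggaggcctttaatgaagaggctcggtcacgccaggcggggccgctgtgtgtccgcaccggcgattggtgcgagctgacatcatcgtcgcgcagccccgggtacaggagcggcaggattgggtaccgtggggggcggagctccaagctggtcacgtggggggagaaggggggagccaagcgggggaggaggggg
Klf9: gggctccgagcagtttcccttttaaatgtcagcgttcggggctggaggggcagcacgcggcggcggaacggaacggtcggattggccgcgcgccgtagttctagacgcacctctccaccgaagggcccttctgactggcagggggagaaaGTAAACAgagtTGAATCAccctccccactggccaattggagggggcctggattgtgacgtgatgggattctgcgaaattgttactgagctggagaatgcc
The motifs were the CArG box bound by SRF, the CRE TGACGTCA, the AP-1 site TGANTCA, the EGR site GCGTGGGCG, the KLF site CCACCC, the FOXO site GTAAACA and the MEF2 site. No 2 of the marked matches overlap. The Klf2 window holds a MEF2 match, CTAAATTTAG, from -118 to -109, and a KLF match from -19 to -14, counted from the start. A MEF2 match is present in 2.92% of the 32851 windows of this length in the RefSeq table, and a KLF match in 28.08%. The Klf6 window holds none of the 7 motifs. The Klf9 window holds a FOXO match from -100 to -94 and an AP-1 match from -89 to -83, which 3.17% and 6.75% of all windows have. Of the members, 6 have a window in that table. The window of Klf3 holds 3 KLF matches and that of Klf13 holds 1, with none of the other 6 motifs. The Klf7 window also holds 3 KLF matches and none of the others, but it lies within the outer bounds of the gene in the RefSeq table. A CArG box (1.47% of windows), a CRE (1.55%) or an EGR site (0.54%) was found in none of the 6. A match or its absence describes these letters only.

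The arrays were alike in scale, with medians between 5.97 and 6.22 on the log2 scale and Pearson r between 0.985 and 0.993 for the 2 arrays of a group over all probe sets. Csf1r, which encodes the receptor, read between 12.72 and 13.41 in the 32 arrays, and all 9 measured macrophage markers had means above the median gene. All 6 lymphocyte and 8 granulocyte and mast cell markers had means below that median, while 2 of 7 endothelial and 4 of 7 fibroblast markers were above it, the highest being Kdr at the 52.9th and Pdgfra at the 63.9th percentile. The members' mean signals lay between the 66.1st percentile of genes for Klf9 and the 97.2nd for Klf6. A gene is called where limma's adjusted p is below 0.05 and the fold is above 1.5, and "rose" and "fell" are kept for called genes. Differences are in log2 units with their standard error (SE). Statements that the arrays of groups overlap or lie apart are descriptions. The share of all genes whose arrays lie apart is not given. In the time course the arrays with the same number deviate together within each line, and a fit with that number as a block within the line (the replicate block) is quoted where it changes a call. For calls gained in other fits, the share of all genes called in that fit is given only after quantile normalization.

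After CSF-1 was given back, the 7 genes differed in when their mean signals were highest or lowest. In WT and Y721F alike, Klf2 and Klf6 were highest at 20 min, and Klf7, Klf9 and Klf10 at 60 min. Klf3 was highest at 0 min in both lines, and Klf13 at 0 min in WT and 60 min in Y721F. The lowest means of Klf2, Klf3, Klf9 and Klf13 were at 180 min in both lines. Klf7 is the member whose change passed the test without the block. It rose by 1.99 (SE 0.21, adjusted p = 0.00129) at 60 min in WT and by 1.72 (SE 0.21, adjusted p = 0.00512) in Y721F, close to 4-fold and above 3-fold.

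In WT, Klf7 read 8.21 and 8.38 on arrays I and II at 0 min, 9.04 and 8.81 at 20 min, 10.13 and 10.43 at 60 min, and 9.01 and 9.69 at 180 min. In Y721F it read 8.72 and 8.66 at 0 min, 8.76 and 8.86 at 20 min, 10.50 and 10.32 at 60 min, and 8.94 and 9.36 at 180 min. The 60 min arrays of both lines stood above every other array of the time course, and at 180 min both lines were still above their own 0 min arrays. Klf7 rose from 20 to 60 min by 1.36 (SE 0.21, adjusted p = 0.036) in WT and by 1.60 (SE 0.21, adjusted p = 0.0261) in Y721F. At 180 min it was still up in WT, at 1.06 (SE 0.21, adjusted p = 0.0298), while Y721F measured 0.46 (SE 0.21, adjusted p = 0.374). The Y721F decline from 60 to 180 min, -1.26 (SE 0.21, adjusted p = 0.132), was called with the replicate block (adjusted p = 0.0147, among 0.391% of genes), while without it 0 members and 0.0301% of genes were called there. Klf7 was 1 of the 109 genes (0.547%) that rose at 60 min in WT, 1 of 32 (0.16%) in Y721F and 1 of 275 (1.38%) at 180 min in WT. From 20 to 60 min it was among 0.0652% of genes that rose in WT and 0.0301% in Y721F. Leaving out either 0 min array of WT, or 180 min II, ended the WT call at 180 min (adjusted p = 0.253, 0.0795 and 0.263). In Y721F at 60 min the call was lost without 0 min I, 0 min II or 60 min I (adjusted p = 0.0778, 0.0502 and 0.114), and the calls from 20 to 60 min were lost without any 1 of their 4 arrays in either line (adjusted p from 0.11 to 0.401 in WT and from 0.0746 to 0.456 in Y721F). These last 2 calls also ended after quantile normalization (adjusted p = 0.0573 and 0.0501). Leaving out an array of another group, which shares the estimate of spread, ended the WT call from 20 to 60 min for 8 of 12 such arrays (adjusted p up to 0.0776) and the Y721F call for 2 of 12 (up to 0.0581). The WT call at 60 min held without any 1 of the 16 arrays of the experiment, but a fit of only the 4 arrays compared ended it (adjusted p = 0.117), as it did the calls at 180 min in WT (0.132) and at 60 min in Y721F (0.0746).

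**Figure D1:**
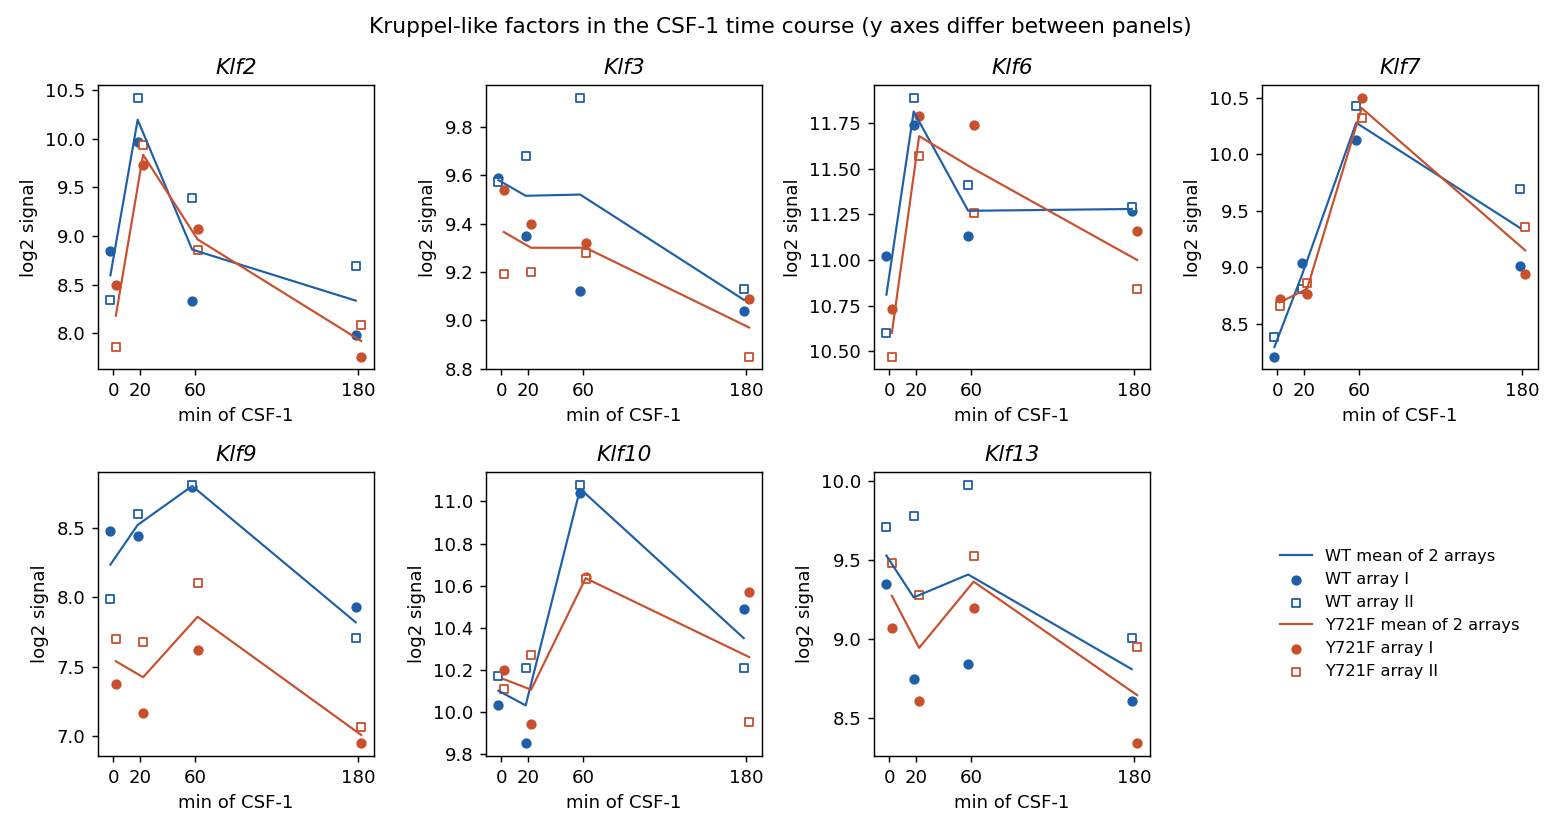
Log2 signal of each member (y axis) against minutes of CSF-1 (x axis), with a filled circle for array I, an open square for array II and a line through the means of the 2 arrays; WT is blue and Y721F red, drawn 2 min to either side of the true time. Means of Klf2 and Klf6 are highest at 20 min and those of Klf7, Klf9 and Klf10 at 60 min. Array II lies above array I of Klf13 in all 8 groups.

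Klf10, like Klf7 and Klf9, had its highest mean at 60 min in both lines. WT arrays I and II read 10.03 and 10.17 at 0 min, 9.85 and 10.21 at 20 min, 11.04 and 11.08 at 60 min, and 10.49 and 10.21 at 180 min. Y721F read 10.20 and 10.11, 9.94 and 10.27, 10.64 and 10.63, and 10.57 and 9.95 at the same times. The 60 min arrays were above all arrays of the other times in each line, and WT was above Y721F there. The change from 0 min was 0.96 (SE 0.20, adjusted p = 0.0539) in WT, just short of a call, and 0.48 (SE 0.20, adjusted p = 0.851) in Y721F. The replicate block called Klf10 in WT (adjusted p = 0.0155), where it calls 2.76% of genes up, and also from 20 to 60 min (1.03, SE 0.20, adjusted p = 0.0365 against 0.111 without the block, among 0.366% of genes).

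Klf2 showed the largest difference of any member at 20 min. In WT arrays I and II read 8.85 and 8.34 at 0 min, 9.97 and 10.42 at 20 min, 8.33 and 9.39 at 60 min, and 7.98 and 8.69 at 180 min. In Y721F they read 8.50 and 7.86, 9.73 and 9.94, 9.07 and 8.86, and 7.76 and 8.08. All 4 arrays at 20 min were above the other 12 of the time course. By 60 min the WT arrays overlapped those at 0 min, while the Y721F arrays were still above theirs. The change at 20 min was 1.60 (SE 0.35, adjusted p = 0.281) in WT and 1.66 (SE 0.35, adjusted p = 0.272) in Y721F, about 3-fold but uncalled. The replicate block called it in WT (adjusted p = 0.0447, where 0.406% of genes are called up) and not in Y721F (adjusted p = 0.0545). The WT change was not called after quantile normalization (adjusted p = 0.392) or with all 32 arrays in one fit (adjusted p = 0.745). From 20 to 60 min Klf2 measured -1.34 (SE 0.35, adjusted p = 0.447) in WT and -0.87 (SE 0.35, adjusted p = 0.775) in Y721F.

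Klf6 had the highest signal of its range at 20 min as well. WT arrays I and II read 11.02 and 10.60 at 0 min, 11.74 and 11.89 at 20 min, 11.13 and 11.41 at 60 min, and 11.27 and 11.29 at 180 min. Y721F read 10.73 and 10.47, 11.79 and 11.57, 11.74 and 11.26, and 11.16 and 10.84. At each of the 3 later times both arrays of a line were above its 0 min arrays. The 20 min change was 1.01 (SE 0.20, adjusted p = 0.13) in WT and 1.08 (SE 0.20, adjusted p = 0.127) in Y721F. With the replicate block Klf6 was called in both lines (adjusted p = 0.0063 and 0.0059), where 0.406% and 0.196% of genes are called up, and in Y721F also at 60 min (0.90, SE 0.20, adjusted p = 0.0118 against 0.156, among 0.687% of genes). At 20 min without the block 0 members were called in either line, against 0.16% of genes in WT and 0.0802% in Y721F. With an unadjusted limma p below 0.05 were 3 members in WT and 2 in Y721F, against 436 and 1357 genes.

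**Figure D2:**
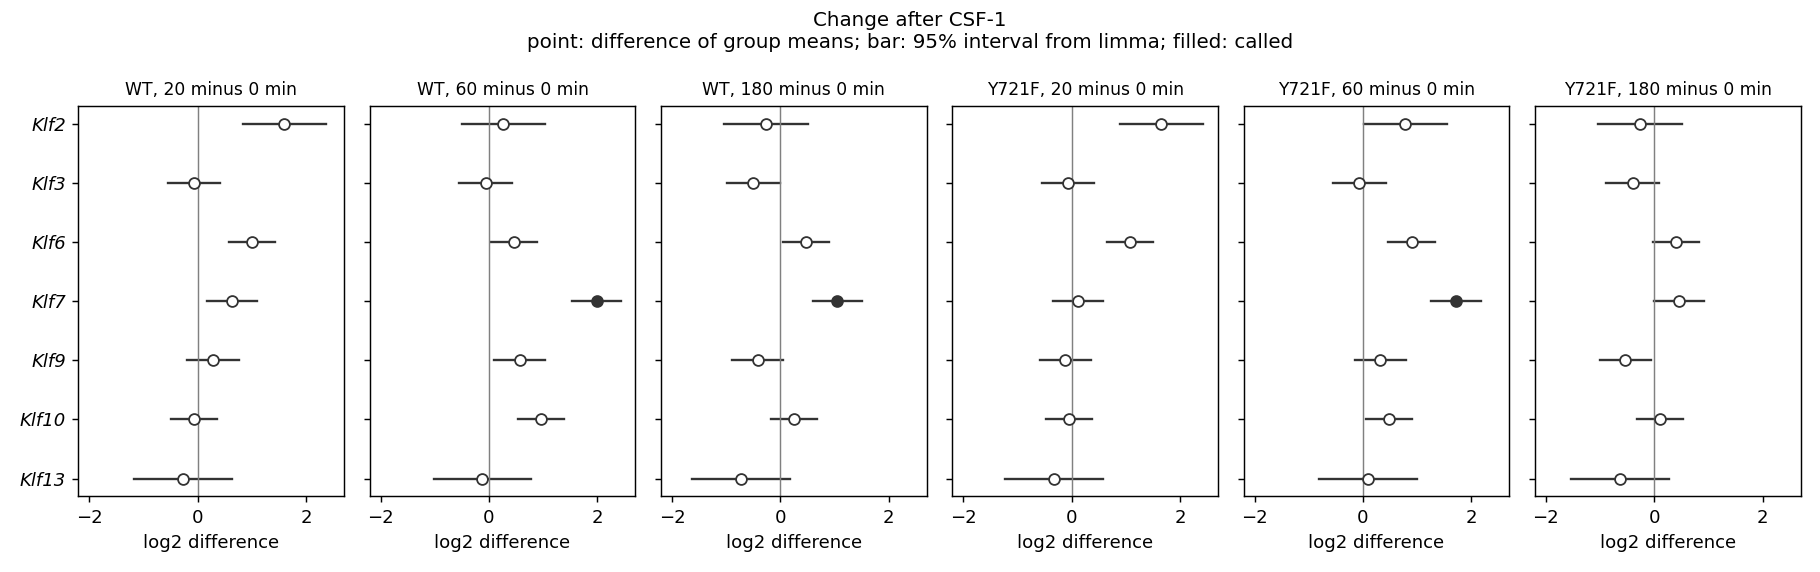
Log2 difference from 0 min (x axis) of each member (y axis) at 20, 60 and 180 min in WT and Y721F, as a point with its 95% limma interval, filled where the gene was called. Klf7 is filled at 60 min in both lines and at 180 min in WT, and the Klf2 and Klf6 intervals at 20 min lie above 0 without a call.

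Klf3, Klf9 and Klf13, like Klf2, had their lowest means at 180 min. Klf3 read 9.59 and 9.57 at 0 min in WT, 9.35 and 9.68 at 20 min, 9.12 and 9.92 at 60 min, and 9.04 and 9.13 at 180 min. In Y721F Klf3 read 9.54 and 9.19, 9.40 and 9.20, 9.32 and 9.28, and 9.09 and 8.85. Its 180 min arrays were below those at 0 min in both lines, with changes of -0.50 (SE 0.22, adjusted p = 0.329) and -0.40 (SE 0.22, adjusted p = 0.51). Klf13 read 9.35 and 9.71 at 0 min in WT, 8.75 and 9.78 at 20 min, 8.84 and 9.98 at 60 min, and 8.61 and 9.01 at 180 min. In Y721F Klf13 read 9.07 and 9.48, 8.61 and 9.28, 9.20 and 9.53, and 8.34 and 8.95. Array II was above array I in all 8 groups, by 0.33 to 1.14. At 180 min Klf13 measured -0.72 (SE 0.41, adjusted p = 0.511) in WT and -0.63 (SE 0.41, adjusted p = 0.595) in Y721F, and the replicate block called both as falls (adjusted p = 0.021 and 0.0477), beside 3.18% and 2.74% of all genes. Without the block 0 members were called at 180 min in Y721F, where 0.261% of genes were. There 2 members had an unadjusted limma p below 0.05, against 2656 genes.

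Klf9 had its highest mean at 60 min in WT and Y721F, ahead of its 180 min minimum. WT read 8.48 and 7.99 at 0 min, 8.44 and 8.60 at 20 min, 8.79 and 8.81 at 60 min, and 7.93 and 7.71 at 180 min. Y721F read lower throughout, at 7.38 and 7.70, 7.17 and 7.68, 7.62 and 8.10, and 6.95 and 7.07. At 0 min the lines did not overlap, with Y721F minus WT at -0.70 (SE 0.22, adjusted p = 0.257). From 60 to 180 min Klf9 measured -0.98 (SE 0.22, adjusted p = 0.371) in WT and -0.85 (SE 0.22, adjusted p = 0.376) in Y721F. The replicate block called both declines (adjusted p = 0.0233 and 0.0333, among 0.216% and 0.391% of genes). Without it 0 members were called from 60 to 180 min in WT, where 0.0251% of genes were. There 3 members had an unadjusted limma p below 0.05, against 1095 genes.

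Whether the lines respond differently was tested as the Y721F change minus the WT change. At 20, 60 and 180 min limma called 0 of the 7 members and 0 of all genes (0%), and 0 members had an unadjusted p below 0.05, against 810, 640 and 277 genes. For Klf2 at 20 min the difference of responses was 0.06 with a 95% interval from -1.03 to 1.14, and for Klf6 it was 0.08, from -0.53 to 0.68. For Klf7 at 60 min it was -0.27, from -0.91 to 0.38, and at 180 min -0.60, from -1.24 to 0.05. For Klf10 at 60 min it was -0.48, from -1.09 to 0.13. These intervals leave room for differences of about 2-fold, so like responses are not shown. With the replicate block 0 members were called as well.

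The steady-state experiment compared cells kept in CSF-1 with starved cells in each line. Klf7 arrays were higher and Klf13 arrays lower in grown cells of all 4 lines, and Klf3 arrays were lower in 3 lines and overlapped in Y721F. How many of all genes lay apart in these ways is not given. The mean of Klf6 was above 0 in all 4 lines (0.03 to 0.42) with arrays that overlapped in 3, and Klf2, Klf9 and Klf10 had no common direction. Klf7 rose by 1.02 (SE 0.28, adjusted p = 0.0425) in WT and by 1.18 (SE 0.28, adjusted p = 0.0211) in Y721F, about 2-fold, and measured 0.74 (SE 0.28, adjusted p = 0.267) in 3ABY721 and 0.55 (SE 0.28, adjusted p = 0.453) in 3AB. The 3ABY721 value was called with only the arrays compared (adjusted p = 0.0138). Klf13 fell in WT by 0.60 on the log2 scale (SE 0.16, adjusted p = 0.0368). The background is high here: 2.3% of genes rose and 3.01% fell in WT, and 3.48% rose in Y721F. The shares called in either direction in 3ABY721 and 3AB, where 0 members were called, were 1.41% and 0.687%. An unadjusted limma p below 0.05 was found there for 3 and 2 members, against 2431 and 2394 genes.

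Starved WT arrays I and II read 8.68 and 8.09 for Klf7, and grown ones 9.79 and 9.02. Starved and grown Y721F read 7.61 and 7.68 against 8.37 and 9.28, 3ABY721 8.0 and 7.92 against 8.73 and 8.66, and 3AB 7.93 and 8.15 against 8.61 and 8.56. Grown arrays were above starved ones in every line, but the 2 grown Y721F arrays lay 0.91 apart. The WT call of Klf7 ended without starved I, starved II or grown I (adjusted p = 0.0531, 0.264 and 0.366), and the Y721F call without starved I, starved II or grown II (adjusted p = 0.08, 0.138 and 0.164). A fit of only the 4 arrays compared ended both (adjusted p = 0.208 and 0.106), and the WT call also ended without 10 of the 12 arrays of the other groups (adjusted p up to 0.0609).

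For Klf13, starved and grown WT read 8.29 and 8.08 against 7.79 and 7.39, and Y721F 7.94 and 7.86 against 7.22 and 7.54. In 3ABY721 the values were 7.99 and 8.11 against 7.58 and 7.44, and in 3AB 7.80 and 7.90 against 7.38 and 7.47. No line had overlapping groups. The differences of Y721F, 3ABY721 and 3AB were -0.52, -0.54 and -0.43 (SE 0.16), uncalled (adjusted p = 0.0642, 0.123 and 0.299). The WT value, 1.51-fold, lies just inside the fold threshold. It was not called after quantile normalization (-0.57), with all 32 arrays in one fit (adjusted p = 0.33), with only the arrays compared (0.235) or without starved I, starved II or grown II (adjusted p = 0.207, 0.0642 and 0.187), nor without 8 of the 12 arrays of other groups (adjusted p up to 0.0563).

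Klf3 differed between Y721F and both WT and 3AB when starved. Starved and grown WT read 9.07 and 9.03 against 8.51 and 8.51, and 3ABY721 8.74 and 8.64 against 8.22 and 8.27. Starved and grown 3AB read 8.75 and 8.89 against 8.46 and 8.59, and Y721F 8.05 and 8.14 against 7.83 and 8.05. In WT the grown minus starved difference of -0.54 (SE 0.12, adjusted p = 0.0195) passed the p threshold and not the fold. Starved Y721F differed from starved WT by -0.96 (SE 0.12, adjusted p = 0.000159), and both arrays were below those of all other starved groups. This is the only member call in the 5 comparisons of a line lacking Tyr-721 with its partner carrying it, and it held without any 1 of the 16 arrays and under every alternative, with adjusted p up to 0.0055. It stands among 1527 genes (7.66%) that were lower in starved Y721F. Of the genes called there 31.2% were higher, against 46.7% after quantile normalization. Grown Y721F measured -0.57 (SE 0.12, adjusted p = 0.00913) against WT, 1.48-fold and so just outside the fold threshold. The other line without Tyr-721, 3AB, was not lower than its partner 3ABY721. It measured 0.13 (SE 0.12, adjusted p = 0.86) when starved, with a 95% interval from -0.14 to 0.40, and 0.28 (SE 0.12, adjusted p = 0.412) when grown, from 0.02 to 0.55. Compared directly, 3AB was higher than Y721F by 0.73 (SE 0.12, adjusted p = 0.00162) when starved and by 0.585 (SE 0.12, adjusted p = 0.00658) when grown, among 5.08% and 4.65% of genes. The grown value sits on the fold threshold and lost its call without Y721F grown I (0.475) or 3AB grown II (adjusted p = 0.0883), with only the arrays compared (adjusted p = 0.0823) and after quantile normalization (0.47), which also took the starved value below the fold threshold (0.57). At 0 min of the time course Y721F minus WT was -0.22 (SE 0.22, adjusted p = 0.844) for Klf3.

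**Figure D3:**
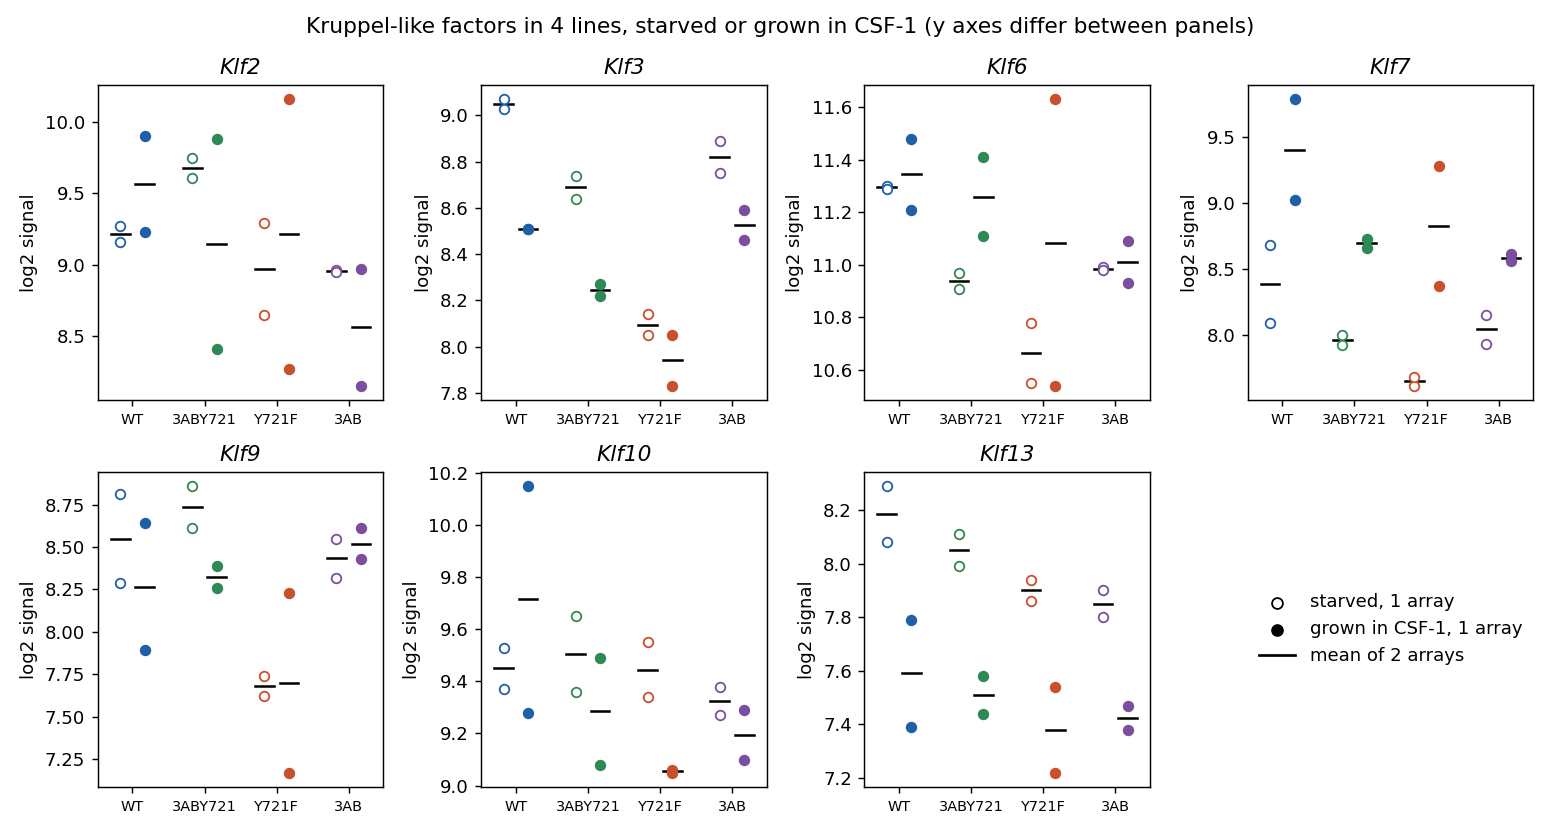
Log2 signal of each member (y axis) in the 4 lines (x axis), open circles for starved and filled circles for grown arrays, with a bar at the mean of 2 arrays. Klf3 is lowest in Y721F in both states, Klf13 is lower in the grown cells of all 4 lines, and the 2 grown Y721F arrays lie far apart for Klf2, Klf6 and Klf9.

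In starved Y721F against WT all 7 members were below 0, with a median of -0.63 against -0.005 for all genes. An unadjusted limma p below 0.05 was found for 4 members, and for 6405 of all 19938 genes. After quantile normalization 5 of 7 were below 0, with Klf2 at 0.02 and Klf10 at 0.26, and the median was -0.44. Klf6 measured -0.63 (SE 0.25, adjusted p = 0.0951) and Klf7 -0.74 (SE 0.28, adjusted p = 0.0787), with the Y721F arrays below those of WT. A fit of only the arrays compared called both (adjusted p = 0.0374 and 0.0482).

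Klf9 was also low in Y721F, and its call depended on which arrays entered the fit. Starved WT read 8.81 and 8.29, 3ABY721 8.61 and 8.86, 3AB 8.32 and 8.55, and Y721F 7.62 and 7.74. Grown WT read 8.64 and 7.89, 3ABY721 8.26 and 8.39, 3AB 8.43 and 8.61, and Y721F 7.17 and 8.23. Starved Y721F lay below every array of the other starved lines, with Y721F minus WT at -0.87 (SE 0.29, adjusted p = 0.0553) and 3AB minus Y721F at 0.76 (SE 0.29, adjusted p = 0.123). The first was called with all 32 arrays in one fit (adjusted p = 0.0358) and with only the arrays compared (0.0244), and the second with only the arrays compared (0.0197). The 2 grown Y721F arrays differed by 1.06.

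Klf2, Klf6 and Klf10 gave no call in grown against starved cells of any line. Starved and grown Klf2 read 9.27 and 9.16 against 9.90 and 9.23 in WT, and 9.75 and 9.61 against 8.41 and 9.88 in 3ABY721. In Y721F Klf2 read 8.65 and 9.29 against 8.27 and 10.16, and in 3AB 8.96 and 8.95 against 8.97 and 8.15. The SE of a Klf2 difference was 0.52, and grown minus starved ran from -0.54 in 3ABY721 to 0.35 in WT. Klf6 read 11.30 and 11.29 against 11.48 and 11.21 in WT, and 10.91 and 10.97 against 11.11 and 11.41 in 3ABY721. In Y721F Klf6 read 10.55 and 10.78 against 10.54 and 11.63, and in 3AB 10.99 and 10.98 against 11.09 and 10.93. Klf10 read 9.53 and 9.37 against 10.15 and 9.28 in WT, and 9.65 and 9.36 against 9.49 and 9.08 in 3ABY721. In Y721F Klf10 read 9.34 and 9.55 against 9.05 and 9.06, and in 3AB 9.27 and 9.38 against 9.29 and 9.10. Grown and starved arrays of these 3 genes overlapped in most lines, the exceptions being Klf6 in 3ABY721, where grown was above starved, and Klf10 in Y721F, where it was below.

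Grown Y721F is the group with the largest spread among members: 3 of 7 members differed by more than 1 log2 unit between its arrays, against 1.46% of all genes. Results that rest on it move with the array left out. The share of all genes called is not given for the fits without 1 array. The member calls gained in them are therefore not set against a background. Without grown Y721F II, Klf3 (-0.68), Klf6 (-0.81), Klf7 (-1.04) and Klf9 (-1.10) were called lower in grown Y721F than in grown WT (adjusted p = 0.0148, 0.0183, 0.0485 and 0.0377). Without grown Y721F I, Klf6 was called higher in grown than in starved Y721F, at 0.97 (adjusted p = 0.0047). In WT, leaving out grown II gave a call of Klf10 in grown against starved cells, at 0.70 (adjusted p = 0.0358), and of Klf7 and Klf10 in grown Y721F against grown WT, at -0.97 and -1.10 (adjusted p = 0.0468 and 0.00274), and of Klf10 in grown 3ABY721 against WT, at -0.87 (adjusted p = 0.0278). For grown 3AB minus Y721F, Klf2 (-1.60) and Klf6 (-0.62) were called without Y721F grown I (adjusted p = 0.0427 and 0.0344), and Klf9 (1.35) without Y721F grown II (adjusted p = 0.00868). With all arrays 0 members were called in grown Y721F against WT, where 7.88% of genes were. An unadjusted limma p below 0.05 was found there for 2 members, against 4986 genes.

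**Figure D4:**
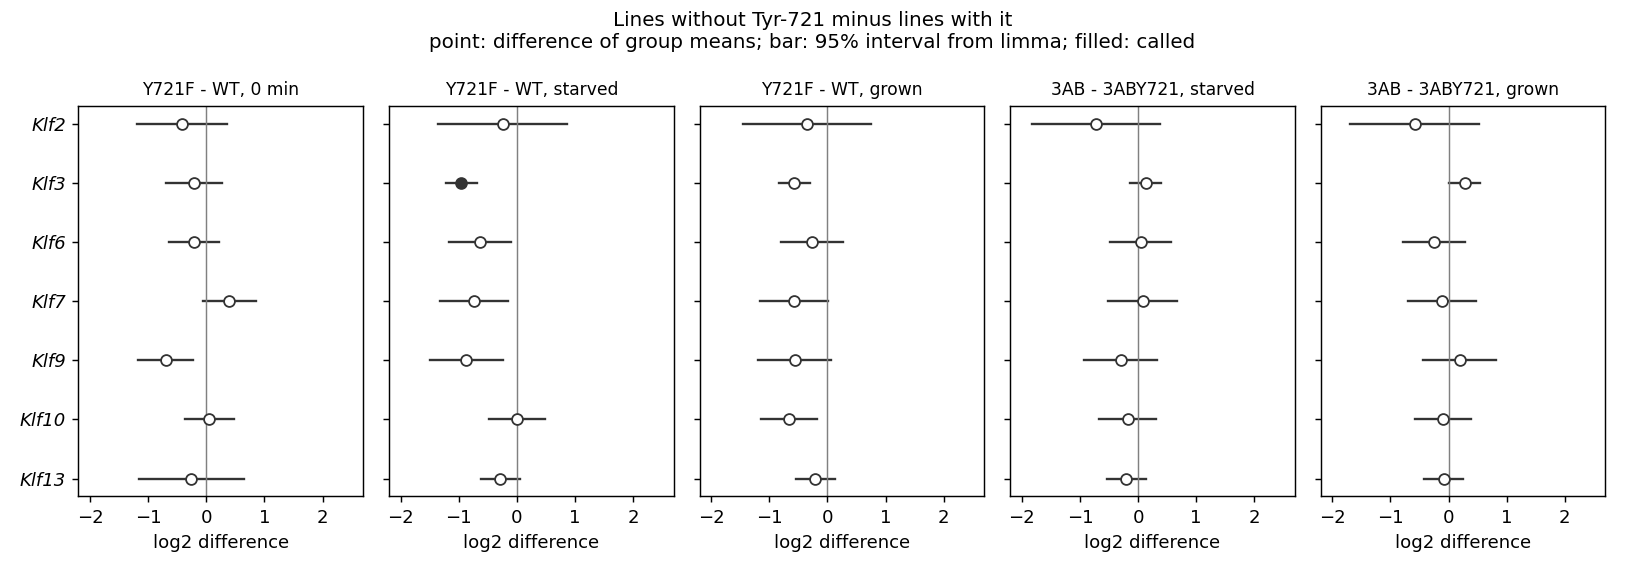
Log2 difference of a line without Tyr-721 minus a line with it (x axis) for each member (y axis), with the 95% limma interval, filled where called. Klf3 in starved Y721F against starved WT, at -0.96, is the filled point, and the 3AB minus 3ABY721 interval of Klf3 when starved includes 0.

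Between 3AB and 3ABY721, 0 members were called in either state (0.617% of genes starved and 1.18% grown). An unadjusted limma p below 0.05 was found for 0 and 1 members, against 1680 and 2251 genes. The Klf2 interval was wide, from -1.83 to 0.38 when starved. At 0 min 0 members were called between Y721F and WT (0.727% of genes), and 1 had an unadjusted limma p below 0.05, against 1921 genes. Between the lines that carry Tyr-721, 3ABY721 and WT, 0 members were called starved (1.81% of genes) or grown (0.256%). There 1 and 2 members had an unadjusted limma p below 0.05, against 3394 and 2376 genes. The difference of growth effects called 0 members between Y721F and WT (0.0903% of genes) and between 3AB and 3ABY721 (0.00502%). At an unadjusted limma p below 0.05 were 1 and 0 members, against 2527 and 440 genes. For Klf3 the Y721F minus WT growth effect was 0.39 with a 95% interval from 0.01 to 0.76, and for Klf7 it was 0.16, from -0.67 to 0.99. Without WT grown II the growth effect of Klf10 was called different, at -1.09 (adjusted p = 0.046), and without Y721F grown I that of Klf6, at 0.92 (adjusted p = 0.0428).

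The starved cells of WT and Y721F were measured in both experiments, and several members did not have the same level there. Klf13 was lower in the steady-state starved group than at 0 min, with differences of -1.345 in WT and -1.375 in Y721F, outside the range from the 5th to the 95th percentile of all genes (-0.79 to 0.68 in WT and -1.11 to 0.75 in Y721F). For Klf3 the differences were -0.53 and -1.27, for Klf10 -0.65 and -0.71, and for Klf7 0.09 and -1.05. Klf2 differed by 0.62 and 0.79 in the opposite direction. In Y721F the Klf3 and Klf2 differences also lay outside that line's percentile range. The labels describe both groups as starved, and the source of these gaps was not tested. No test was made between the experiments.

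Levels over all 16 groups are given as a description, since they carry these gaps between the experiments. Klf7 had the widest range of group means (2.77), from 7.65 in starved Y721F to 10.41 in Y721F at 60 min, and Klf6 the narrowest (1.22), from 10.60 in Y721F at 0 min to 11.82 in WT at 20 min. Klf2 ran from 7.92 (Y721F, 180 min) to 10.20 (WT, 20 min), Klf3 from 7.94 (Y721F grown) to 9.58 (WT, 0 min), and Klf9 from 7.01 (Y721F, 180 min) to 8.80 (WT, 60 min). Klf10 ran from 9.06 (Y721F grown) to 11.06 (WT, 60 min) and Klf13 from 7.38 (Y721F grown) to 9.53 (WT, 0 min). Neighbours in these orders mostly overlapped: of 15 neighbouring pairs, the arrays were apart in 5 for Klf3 and Klf7, 3 for Klf10 and Klf13, and 1 for Klf2, Klf6 and Klf9. For Klf10 these include WT above Y721F at 60 min and Y721F at 60 min above WT at 180 min.

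The genes whose 16 group means followed each member most closely are given as a description, since the groups share arrays, lines and experiment. Klf2 was followed by Pim1, Ier2 and Ier5 (Pearson r from 0.770 to 0.820) and Klf6 by Rhob, Ccl3 and Jun (0.841 to 0.901), of which Ier2, Ier5 and Jun are known immediate early genes. Klf7 was followed by Dusp16, a MAP kinase phosphatase, Homer1 and Mdm2 (0.942 to 0.954). Klf10 was followed by Lrrfip1, Rara and Hivep3 (0.949 each), Klf3 by Tanc2, Ldlrad3 and Arel1 (0.976 to 0.982), and Klf13 by Mob3b, R3hdm4 and Pacs1 (0.976 to 0.986). Klf9 was followed by Cdc45, Parp10 and Cers4 (0.898 to 0.905). After each experiment's own mean was subtracted, a choice made after the data were seen, the closest genes became Socs3 for Klf2 (0.942), Dusp1 for Klf6 (0.920), Stk40 for Klf7 (0.939), Synj1 for Klf3 (0.954), Adgb for Klf9 (0.914), Slc7a11 for Klf10 (0.772) and Arhgap45 for Klf13 (0.894). Candidates were genes with an SD of at least 0.3 over the group means, 6205 before that subtraction and 2575 after it. Each r above is thus among the highest of all candidates. Among the members themselves Klf2 and Klf6 had r = 0.63 over the 16 groups, or 0.74 after that subtraction, and Klf7 and Klf10 0.73 or 0.64. Klf3 and Klf13 had 0.92 or 0.73, Klf10 and Klf13 0.87 or 0.33, Klf3 and Klf10 0.78 or 0.21, and Klf3 and Klf9 0.07 or 0.73. The remaining pairs reached at most 0.52 over the 16 groups and 0.58 after the subtraction.

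Of the rest of the KLF and SP family, 18 of 19 listed genes were measured. In the time course against 0 min 1 was called: Klf16 rose by 0.66 (SE 0.12, adjusted p = 0.0373) at 60 min in WT, among 0.547% of all genes. In grown against starved Y721F, Sp4 rose by 0.76 (SE 0.15) and Klf14 fell by 0.605 on the log2 scale (SE 0.13), where 3.48% of all genes rose and 1.46% fell. In starved Y721F against WT, 2 of 18 were higher and 1 lower, with Sp4 at -0.99 (SE 0.15) beside Klf3 in that direction; of all genes 3.47% were higher and 7.66% lower. The list's median change at 60 min in WT was -0.05, against -0.02 for all genes.

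Among 20 cofactors and upstream regulators, Fhl3, a LIM protein that can bind Klf3, rose in WT at 60 and 180 min by 0.77 and 0.68 (SE 0.15). At these times 0.547% and 1.38% of all genes rose. In starved Y721F 4 of 20 were lower than in WT, namely the acetyltransferase genes Kat2b at -1.06 (SE 0.15) and Ep300 at -0.62 (SE 0.12), the ubiquitin ligase subunit gene Fbxw7 at -0.62 (SE 0.15) and the glucocorticoid receptor gene Nr3c1 at -0.89 (SE 0.25). Of all genes 7.66% were lower there. The list median was -0.29, against -0.005 for all genes. The CtBP genes, through which Klf3 represses, were called in 0 of the 28 comparisons.

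Of 14 listed genes linked in the literature to the members, 12 were measured. Per1, a clock gene, rose at 60 min in WT by 0.97 (SE 0.18, adjusted p = 0.0369), among 0.547% of all genes. In starved Y721F 5 of 12 were lower than in WT, among them Ccl5, the chemokine gene known as a Klf13 target, at -1.74 (SE 0.26), Itgb7 at -1.40 (SE 0.22) and Eng at -1.18 (SE 0.21), beside 7.66% of all genes; Klf13 itself measured -0.29 (SE 0.16, adjusted p = 0.222) there. In grown WT the glucocorticoid-induced gene Tsc22d3 fell by 1.09 on the log2 scale (SE 0.23, adjusted p = 0.0141) and Eng by 0.83 (SE 0.21, adjusted p = 0.0338). In grown Y721F Thbd, a gene induced by Klf2 in endothelium, fell by 1.14 (SE 0.27, adjusted p = 0.0241). Of all genes 3.01% fell in grown WT and 1.46% in grown Y721F.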

How the data were processed

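The deposited values are log2 signals per probe set; that they are log2 was read from the values. Array medians lie close together; whether and how the authors corrected background, normalized or summarized, and the build, are steps not given in the sources used here. No scanner files were used, so another background correction was not run. Of 35556 probe sets, 21789 name 1 gene in the annotation table, 1621 name several and were left out, and 12146 have no entry; 999 genes had several probe sets, and the one with the highest mean over 32 arrays was kept, leaving 19938 genes.

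Each experiment's 16 arrays (8 groups) were fitted in R 4.3.3 (limma 3.58.1: lmFit, then eBayes), with 1 mean for each group and 8 residual degrees of freedom. Benjamini-Hochberg adjustment ran over all genes within each of 28 comparisons. The series text names limma, a fold of 1.5 and an unadjusted p; adjusted p was used here. The 2 arrays of a group are called biological replicates there, and their number limits the precision. The fit was tested on simulated data, and the outcome is not given here.

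Same-numbered arrays were checked for pairing by correlating, across genes, their deviations from the group means. In the time course r was 0.487 to 0.734 over 6 pairs within WT and 0.353 to 0.648 over 6 within Y721F, so a replicate block within the line is quoted; between lines it was -0.063 to 0.290. The members and lists were chosen with earlier results of these data known. Genes outside the family are those most like a member (3 each, among genes whose group means have an SD of at least 0.3) and up to 4 called genes per fixed list. Alternatives were both replicate blocks, quantile normalization, a filter at the 20th percentile of signal, a trended prior, other sets of arrays in the fit, means of probe sets, the authors' cutoff and leaving out each array. Promoter sequences are RefSeq's.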

Additional observations from a re-analysis of the deposited data

How the results depend on the processing

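Counts below are of member-by-comparison calls. In the WT time course the count was 3, and it was 9 with the replicate block within line, 0 with only the arrays of the groups compared, 12 under the authors' cutoff of an unadjusted p, and 1 to 3 with 1 array left out. In Y721F it was 2, and 7 with the replicate block within line, 1 after quantile normalization, 1 with only the arrays compared, 10 under the authors' cutoff and 0 to 2 with 1 array left out. Grown against starved gave 3, or 1 with only the arrays compared and 1 to 4 with 1 array left out; it was 1 without any 1 of the 8 starved arrays or of the grown 3ABY721 and 3AB arrays. Lines without against lines with Tyr-721 gave 1, or 2 with all 32 arrays in one fit, 4 with only the arrays compared, 6 under the authors' cutoff and 1 to 8 with 1 array left out, with 3, 5, 4 and 8 calls without WT grown I, WT grown II, Y721F grown I and Y721F grown II. The difference of responses gave 0 throughout, and the difference of growth effects 0, or 1 without WT grown II or Y721F grown I. The steady-state replicate block, whose numbers are not shown to pair, left 3 calls. No called member changed direction. Over all genes, the replicate block within line moved the count of called genes from 32, 126 and 431 to 86, 745 and 1557 in WT at 20, 60 and 180 min, from 16, 35 and 52 to 49, 170 and 1074 in Y721F, from 282 to 429 in 3ABY721 and from 137 to 222 in 3AB grown against starved, and the block across lines from 145 to 400 for Y721F against WT at 0 min. From 20 to 60 and 60 to 180 min the block within line moved it from 23 and 5 to 106 and 52 in WT and from 10 and 6 to 48 and 121 in Y721F. Quantile normalization moved the share of called genes that were higher from 70.4% to 50.5% in Y721F and from 62.8% to 50.4% in 3AB grown against starved, from 66.7% to 53.1% in starved 3AB minus Y721F, from 18.3% to 40.8% in starved and from 35.3% to 45.5% in grown 3ABY721 minus WT, from 65.4% to 76.5% in Y721F at 180 min and, over 5 and 3 genes, from 20.0% to 33.3% in WT from 60 to 180 min. The authors' cutoff called 72 to 2497 genes per comparison. With 2 arrays per group, differences under about 2-fold were often uncalled, and some larger ones were too. Without the replicate block, Klf2 at 20 min was uncalled at 3.03-fold in WT and 3.15-fold in Y721F.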
